A study of Anguilla anguilla with 3 samples.

Results

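The genes described here are the apolipoproteins, the secreted chaperone clusterin and lipoprotein lipase in the ovary of the European eel (Anguilla anguilla). They are 29 of 45974 predicted genes: every gene with the protein name apoeb, afp4, clus or lipl, and every gene whose description begins with apolipoprotein. They were chosen by name with the read counts of these same libraries in view, so their levels and ratios are a description and no test was made. A name is that of the most similar protein, so several predicted genes can share one. The 29 genes carry 15 distinct names, 2 of them have no name, and each is given below with the authors' gene identifier.

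The libraries came from a yellow eel (the growing stage), a prepubertal silver eel and a matured eel taken after spawning, with 1 eel at each stage and 3 parts of its gonad pooled. The silver eel came from Lake Grevelingen in December, whereas the yellow and matured eels came from Lake Veerse in spring, so in both comparisons with the silver eel stage cannot be told apart from lake and season. In all 3 comparisons stage and individual cannot be told apart. The labels do not say how the matured eel reached maturity. Total gene counts were 27811764, 41426808 and 30137882 reads in the yellow, silver and matured library. Every difference below is between these 3 libraries, and no replicate measures the spread between eels. Levels in different libraries are compared in CPM, reads brought to a common library size with TMM factors, and levels of different genes in the authors' RPKM, which also divide by transcript length. A fold is a ratio of scaled reads, and its 95% interval (exact conditional binomial, Clopper-Pearson) covers counting error only. Of 32 oocyte marker genes 30, 27 and 27 had at least 10 CPM in the yellow, silver and matured library, with summed levels of 58405, 47127.5 and 39229 CPM in the yellow, silver and matured ovary.

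Apolipoproteins are amphipathic proteins that coat lipoprotein particles and direct them to receptors, enzymes and transfer proteins. Apolipoprotein B is the large structural protein of very-low-density and low-density lipoproteins, while small exchangeable carriers such as apolipoproteins A-I, A-IV, C-I and E move between particles. Lipoprotein lipase releases fatty acids from the triglycerides of these particles at the surface of tissues. In egg-laying fish the growing oocyte stores yolk protein and neutral lipid that arrive from the blood, in part through receptors of the low-density lipoprotein receptor family.

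The 29 genes together took 0.0807%, 0.0333% and 0.471% of the reads in the yellow, silver and matured library. The genes named apoeb, afp4, clus and lipl held 32.8%, 13.4% and 93.4% of that share at these stages. In the matured library apoeb alone held 110039 of the 141902 reads of the group, while afp4 held 13132, clus 8359 and lipl 968. These 4 names were chosen with the reads in view, so nothing is read from their joint share. In bulk tissue fewer cells of a type and less RNA per cell cannot be told apart. Of the 29 genes, 14 reached 10 CPM in at least 1 library, 11 had reads but stayed below that level, and 4 had no reads in any library.

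Differences of at least 4-fold, after adding 1 CPM to both libraries, were counted where the higher library had at least 10 CPM. In silver versus yellow, 12 of the 29 genes could be counted and 6 of them were lower and 0 higher, where 1.43% of all 12462 countable genes were lower and 3.69% higher. In matured versus silver, 14 could be counted and 6 were higher and 0 lower, where 2.23% of all 12573 countable genes were higher and 4.61% lower. In matured versus yellow, 6 of 14 were higher and 2 lower, where 3.39% of all 12553 countable genes were higher and 2.59% lower. The genes were chosen with these ratios known, so nothing is read from the difference between their counts and those shares. Of the members 12, 10 and 13 reached 10 CPM in the yellow, silver and matured library. In matured versus silver afp4 (g35166 and g44321), apoeb (g41003) and lipl (g9732) were countable only through the matured library. They could not have been counted as lower there, so nothing is read from the balance of higher and lower. The median log2 ratio of the countable members was -1.92 in silver versus yellow, against 0.09 over all genes. It was 1.002 in matured versus silver, against -0.21 over all genes, and 0.81 in matured versus yellow, against -0.14. Each library enters 2 of these 3 comparisons, so they are not separate pieces of evidence. In silver versus yellow both afp4 genes were countable only through the yellow library. In matured versus yellow apoeb (g41003) and lipl (g9732) were countable only through the matured library, and g38370 only through the yellow one. The members were chosen with these ratios known, so nothing is read from their medians either.

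When only library totals were used for scaling, the median over all genes became 0.16 in matured versus silver and 0.16 in matured versus yellow. With that scaling 57.6% of all genes counted in matured versus silver were higher, against 32.7% with TMM factors, and 74.3% in matured versus yellow, against 56.7%. The same 6 members were counted in matured versus silver under both scalings. The genes nearest the 4-fold limit were apool (g8981, log2 ratio -2.12) inside and apoc1 (g15955, 1.77) outside it in silver versus yellow. In matured versus silver they were lipl (g9732, 3.49) inside and apol6 (g13372, -1.82) outside, and in matured versus yellow aibp (g16070, -2.003) inside and apol6 (g18770, -1.87) outside.

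**Figure D1:**
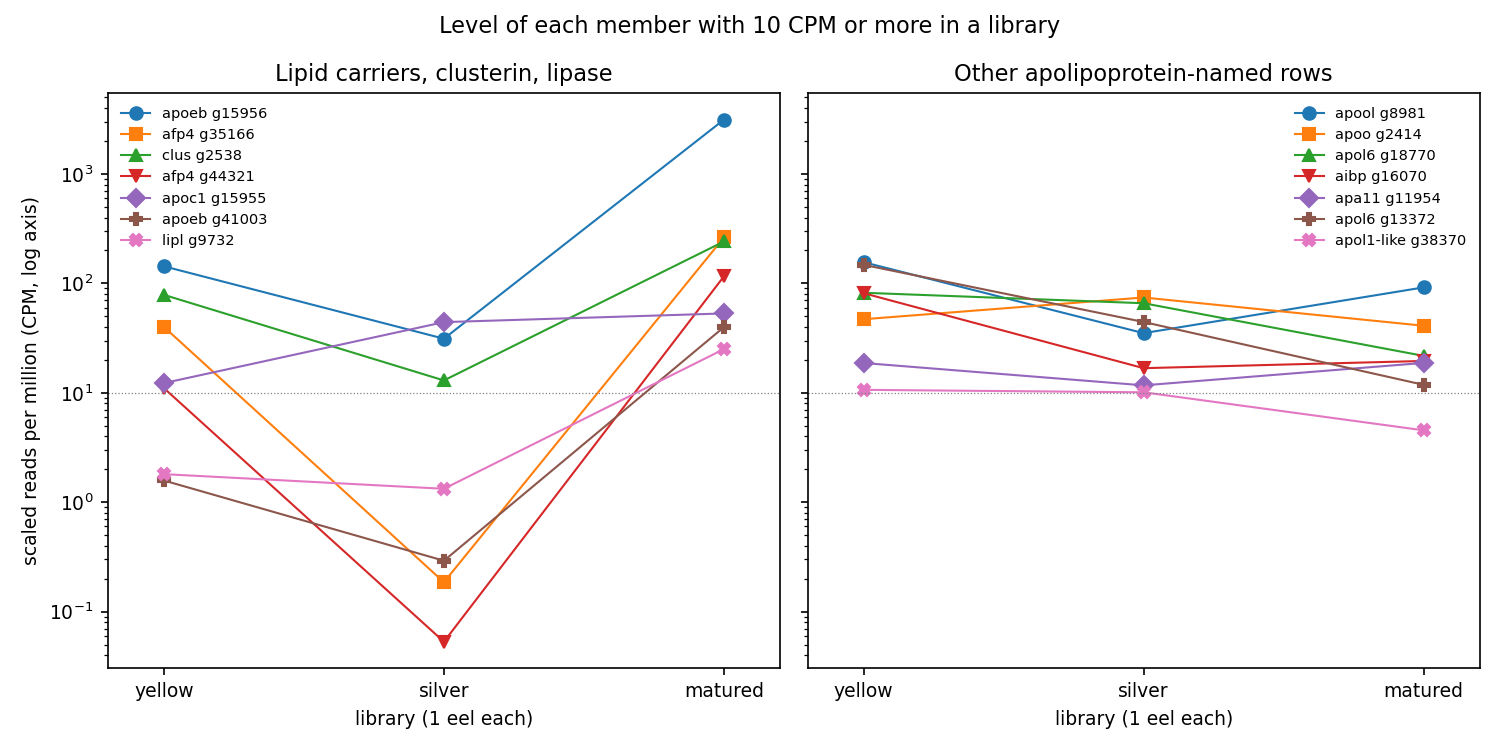
Level of the 14 members that reach 10 CPM in a library (dotted line), in CPM on a log axis, in the yellow, silver and matured library of 1 eel each. The apoeb, afp4 and clus genes are lowest in the silver library and highest in the matured library, where apoeb (g15956) stands at 3139.8 CPM, and apol6 (g13372) steps down from yellow to matured.

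Apolipoprotein E had the highest level per transcript length of the group in the matured ovary. This protein is the main ligand on lipoprotein remnants for the low-density lipoprotein receptor family, and in mammals it is also made outside the liver, among others by macrophages. The gene apoeb (g15956) had 3813, 1177 and 108655 reads in the yellow, silver and matured library. Scaled, these were 143, 31.2 and 3139.8 CPM in the yellow, silver and matured ovary. The silver level was therefore the lowest and the matured level stood far above both others. Silver versus yellow, it was 4.59-fold lower (95% interval 4.30 to 4.91). In the matured ovary it was 101-fold higher than in the silver ovary (94.99 to 107) and 21.9-fold higher than in the yellow ovary (21.2 to 22.6). Per transcript length it reached 1567 RPKM in the matured library, rank 23 of all 45974 genes, against rank 9525 at 12.3 RPKM in the silver and rank 2357 at 59.6 RPKM in the yellow library. By log2 ratio in matured versus silver g15956 ranked 3 of 12573 countable genes.

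A second gene of that name, g41003, is a short model of 172 bases with a similarity of 0.80 to its best match. It had 1.58, 0.292 and 39.9 CPM in the yellow, silver and matured ovary. Its order over the libraries was the same as that of g15956. It was 137-fold higher in the matured than in the silver ovary (76.2 to 275), a ratio that rests on 11 reads in the silver library, and 25.3-fold higher than in the yellow ovary (18.6 to 35.2). The reads of g41003 per read of g15956 were 0.0127 in the matured (0.0120 to 0.0134), 0.00935 in the silver (0.00465 to 0.0168) and 0.0110 in the yellow library (0.00793 to 0.0149). These intervals overlap, and the files do not say whether the 2 models are parts of one gene. About 97.2% of the reads of g15956 and 97.1% of those of g41003 aligned uniquely. The remaining apoeb gene, g18942, had 4 reads in the matured library and 0 in the others. The 3 genes together made up 0.365% of all reads of the matured library, against 0.00287% of the silver and 0.0139% of the yellow library.

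The 2 genes named afp4 had the highest log2 ratios of all countable genes in matured versus silver after adding 1 CPM. With a pseudocount of 5 CPM that of apoeb (g15956) was higher, at 6.44 against 5.69 for afp4 (g35166) and 4.58 for afp4 (g44321), and with the length trend removed apoeb and g44321 both stood at 6.75. Type 4 ice-structuring protein is a plasma protein first described in a cold-water sculpin, and its bundle of amphipathic helices resembles that of the exchangeable apolipoproteins. The best match had a similarity of 0.595 (e-value 0.000175) for g35166 and 0.785 (e-value 1.18e-07) for g44321. The name, of g35166 above all, is therefore uncertain. The gene g35166, a model of 199 bases, had 1066, 7 and 9112 reads in the yellow, silver and matured library, or 40.1, 0.186 and 263 CPM. The gene g44321, a model of 129 bases, had 294, 2 and 4020 reads in the yellow, silver and matured library, or 11.1, 0.0530 and 116 CPM. In both genes the silver library was nearly empty while the yellow library was well filled.

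In silver versus yellow g35166 was 216-fold lower (104 to 538) and g44321 was 208-fold lower (57.2 to 1729), the second not counted with a pseudocount of 5 CPM. In matured versus silver g35166 was 1419-fold higher (688 to 3529.6) and g44321 was 2191-fold higher (606 to 18095). The silver library held 7 and 2 reads of the pair, and the log2 ratio of g35166 ranged from 5.69 to 9.85 over the processing alternatives. Between the eels that both had many reads, matured versus yellow, g35166 was 6.57-fold higher (6.17 to 7.01) and g44321 was 10.5-fold higher (9.34 to 11.9). Reads of g44321 per read of g35166 were 0.441 in the matured library (0.425 to 0.458) and 0.276 in the yellow library (0.242 to 0.314), so the pair did not keep the same proportion. Per length they stood at 1519 and 1034 RPKM in the matured library, ranks 24 and 52 of all genes. All reads of both aligned uniquely. Per-length levels of models this short are uncertain, since the full transcript may be longer than the model.

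Clusterin, also called apolipoprotein J, is a secreted chaperone that holds misfolded proteins in solution and travels with high-density lipoproteins. The gene clus (g2538) had 2091, 489 and 8359 reads in the yellow, silver and matured library, or 78.6, 13.0 and 242 CPM. The silver library was lowest and the matured library highest. The silver level was 6.06-fold below the yellow one (5.49 to 6.70), and the matured level was 18.6-fold above the silver one (17.0 to 20.5). Against the yellow ovary the matured level was 3.07-fold higher (2.93 to 3.23), short of the 4-fold limit. Its per-length level was 174 RPKM in the matured, 7.42 RPKM in the silver and 47.3 RPKM in the yellow library. Mammalian clusterin also binds the terminal complement complex, and the genes of that complex and its inhibitors were scarcely read here. None of their 11 genes reached 10 CPM, and they summed to 7.22, 10.2 and 11.2 CPM in the yellow, silver and matured ovary.

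Lipoprotein lipase was represented by 4 gene models, of which 1 was counted as higher. The gene g9732 had 48, 50 and 868 reads in the yellow, silver and matured library, or 1.80, 1.33 and 25.1 CPM. Only the matured library stood apart, at 18.9-fold the silver level (14.2 to 25.7) and 13.9-fold the yellow level (10.4 to 19.0). Its fold of silver over yellow was 0.735 (0.485 to 1.12), an interval that includes 1. The neighbouring identifier g9731 followed another order, with 0.451, 2.86 and 2.80 CPM in the yellow, silver and matured ovary, and stayed below 10 CPM throughout. It was 6.35-fold higher in the silver than in the yellow ovary (3.49 to 12.7), and in matured versus silver its fold was 0.979 (0.736 to 1.30). Reads of g9732 per read of g9731 were therefore 8.95 in the matured library (7.25 to 11.2), 0.463 in the silver (0.324 to 0.653) and 4.0 in the yellow library (2.09 to 8.27). The remaining models were g35215, of 411 bases with 3 reads in the matured and 0 in the other libraries, and g45066, of 180 bases with no reads.

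**Figure D2:**
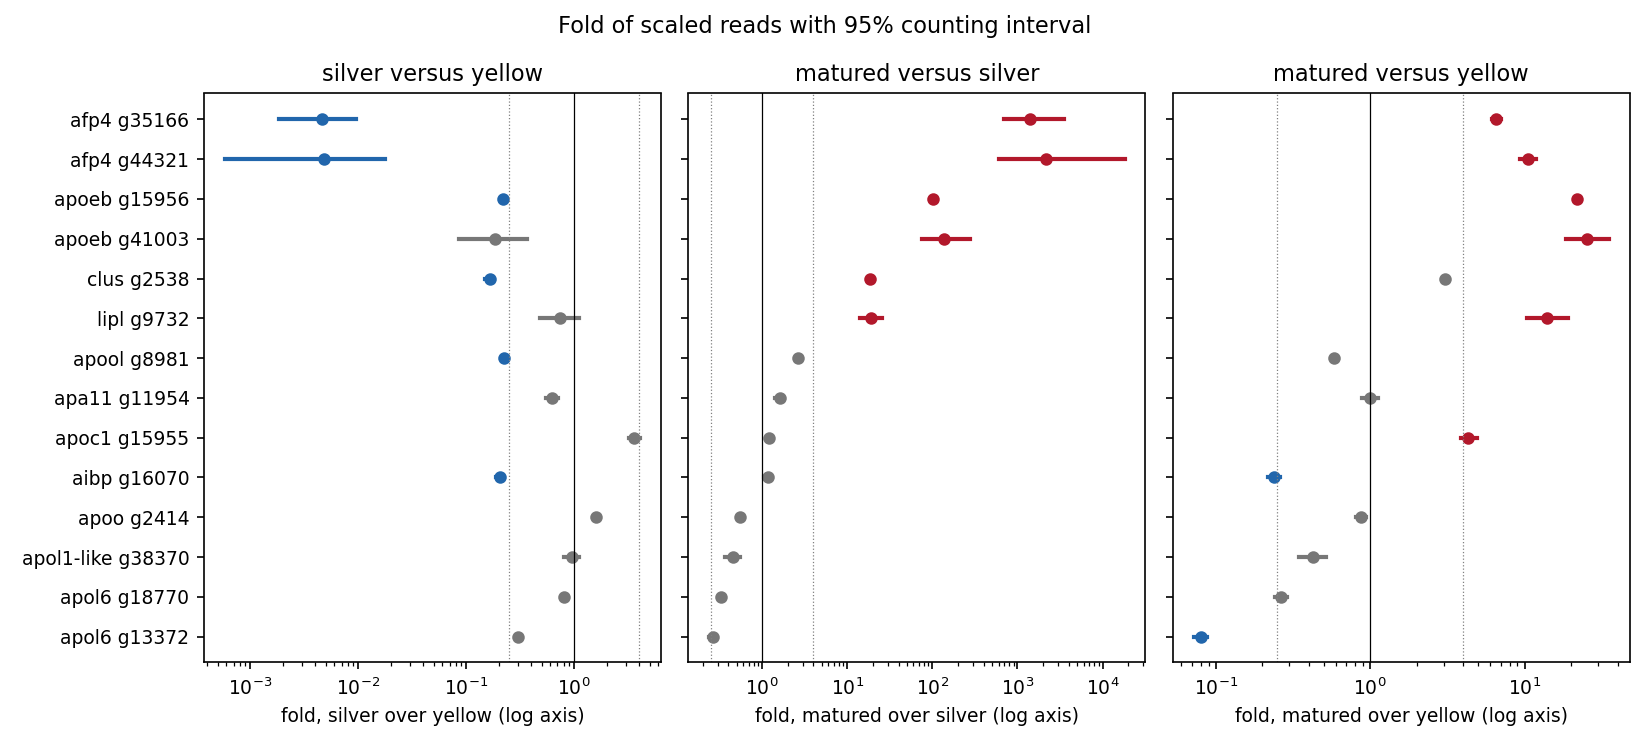
Fold of scaled reads on a log axis, with its 95% counting interval as a line, for the 14 members in silver versus yellow, matured versus silver and matured versus yellow. Red marks genes counted as at least 4-fold higher, blue at least 4-fold lower, grey neither, and the dotted lines stand at 4-fold. The afp4 genes have the widest intervals in both comparisons with the silver library, and apoeb (g41003) and lipl (g9732) have the widest in matured versus yellow. The names apoeb, afp4, clus and lipl hold all 6 red points of matured versus silver.

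Among the regulators of the lipase, angiopoietin-related protein 4 was higher in the matured ovary. This secreted protein, angl4, inhibits lipoprotein lipase in mammals. Its gene g1879 had 8.91, 4.91 and 89.7 CPM in the yellow, silver and matured ovary, and g21430 had 3.08, 3.71 and 20.2 CPM in the same order. In matured versus silver g1879 was 18.3-fold higher (15.8 to 21.3) and g21430 was 5.44-fold higher (4.53 to 6.57). They were the only genes counted in that comparison among 20 countable genes of the list of other lipases and lipase regulators, with 2 higher and 0 lower. In matured versus yellow 2 of 19 were higher and 0 lower, and in silver versus yellow 0 of 16 in either direction. Both angl4 genes stayed below 10 CPM in the yellow and silver libraries, so against the matured library they could not have been counted as lower. Nothing is read from these counts. The medians of this list were 0.37 in matured versus silver, 0.04 in matured versus yellow and -0.37 in silver versus yellow. Over all genes 2.23%, 3.39% and 3.69% were higher, and 4.61%, 2.59% and 1.43% lower, in these comparisons in the same order. The gene lipe (g12567), named for endothelial lipase, which prefers phospholipids, had 251, 336 and 200.3 CPM in the yellow, silver and matured ovary. The lipase maturation gene lmf2 (g16024) had 80.5, 75.9 and 46.1 CPM in the yellow, silver and matured ovary.

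Apolipoprotein C-I followed an order unlike that of apolipoprotein E, although the 2 genes carry consecutive identifiers. In mammals this small carrier hinders lipoprotein uptake and inhibits lipoprotein lipase. The gene apoc1 (g15955) had 326, 1668 and 1838 reads in the yellow, silver and matured library, or 12.3, 44.2 and 53.1 CPM. It was lowest in the yellow ovary and near the same level in the others. Silver versus yellow, it was 3.61-fold higher (3.20 to 4.08), and in matured versus silver 1.201-fold higher (1.12 to 1.28). The matured level was 4.33-fold above the yellow one (3.85 to 4.89) and was counted, though not with a pseudocount of 5 CPM. In RefSeq's annotation of the eel assembly fAngAng1.pri the gene apoeb is followed directly by apoc1, apoc4, apoa2 and apoc2. Among the identifiers next to these, apoa4 (g15957) had 0, 5 and 10 reads and apoa1 (g15959) 4, 11 and 13 reads in the yellow, silver and matured library. Per length neither exceeded 0.452 RPKM, against 82.9 RPKM for apoc1 and 1567 RPKM for apoeb in the matured library. The files do not state whether consecutive identifiers lie side by side on the genome.

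Apolipoprotein A-I, the main protein of high-density lipoproteins, was also matched by apa11 (g11954), whose best match is a trout protein. It had 498, 441 and 649 reads in the yellow, silver and matured library, or 18.7, 11.7 and 18.8 CPM. The silver level was 1.60-fold below the yellow one (1.41 to 1.82), and the matured level was 1.60-fold above the silver one (1.42 to 1.81), both under the 4-fold limit. The fold of matured over yellow was 1.002 (0.890 to 1.13). The second apoa4 gene, g22543, had 1, 10 and 2 reads, and the unnamed apolipoprotein A-IV precursor g27718, a model of 222 bases, had no reads.

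Apolipoprotein B, D and F genes all stayed below 10 CPM. The 3 apob genes, models of 11727 to 19660 bases, summed to 24, 69 and 51 reads in the yellow, silver and matured library, or 0.902, 1.83 and 1.47 CPM. No apob gene exceeded 0.083 RPKM in any library. In the gene g15813 only 14.8% of the reads aligned uniquely, so its 6, 21 and 0 reads are uncertain. Both apod genes, which encode a lipocalin carrier, had 0 reads in all 3 libraries, where a count of 0 allows up to 0.113, 0.0795 and 0.0867 CPM in the yellow, silver and matured library. The apof gene g35317, whose mammalian product restrains cholesteryl ester transfer, had 1.203, 2.07 and 1.503 CPM in the yellow, silver and matured ovary. Microsomal triglyceride transfer protein, mtp, which loads lipid onto apolipoprotein B, reached at most 6.43 CPM (g40106, yellow).

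The apolipoprotein L genes were lowest in the matured ovary. These lipid-binding proteins share a name with the plasma carriers, and the human family includes a channel-forming member. The gene apol6 (g13372) had 3932, 1673 and 409 reads in the yellow, silver and matured library, or 148, 44.4 and 11.8 CPM. The 3 levels formed a descending series. It was 3.33-fold lower in silver versus yellow (3.15 to 3.53), 3.75-fold lower in matured versus silver (3.37 to 4.19) and 12.5-fold lower in matured versus yellow (11.3 to 13.9). Another apol6 gene, g18770, had 82.1, 65.8 and 21.7 CPM in the yellow, silver and matured ovary and was 3.78-fold lower in matured versus yellow (3.48 to 4.11). The short apol6 model g36100 stayed below 10 CPM, with 8.01, 9.73 and 5.66 CPM. The unnamed apolipoprotein L1-like gene g38370 had 10.6, 10.1 and 4.54 CPM in the yellow, silver and matured ovary. Its matured level was 2.34-fold below the yellow one (1.92 to 2.87). The 3 of these genes that reached 10 CPM were lower in matured versus yellow also with library totals alone, and of them only g13372 passed the 4-fold limit.

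Genes whose names contain apolipoprotein but that act elsewhere did not share one order. The products of apoo and apool are subunits of the complex that shapes the inner folds of mitochondria. The gene apool (g8981) had 156, 35.1 and 91.9 CPM in the yellow, silver and matured ovary. It was 4.45-fold lower in silver versus yellow (4.18 to 4.74) and 2.62-fold higher in matured versus silver (2.46 to 2.80). Its partner apoo (g2414) went the opposite way, with 47.0, 74.3 and 41.0 CPM in the yellow, silver and matured ovary. It was 1.58-fold higher in silver versus yellow (1.48 to 1.69) and 1.81-fold lower in matured versus silver (1.70 to 1.93), neither past the limit. The gene aibp (g16070), an apolipoprotein A-I-binding protein that in mammals also repairs a damaged form of NADH, had 81.3 CPM in the yellow ovary, and its silver and matured levels were 16.8 and 19.5 CPM. It was 4.85-fold lower in silver versus yellow (4.43 to 5.30) and 4.16-fold lower in matured versus yellow (3.82 to 4.55), and the second of these was not counted with library totals alone or with the trend over transcript length removed. Neither was counted with a pseudocount of 5 CPM.

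**Figure D3:**
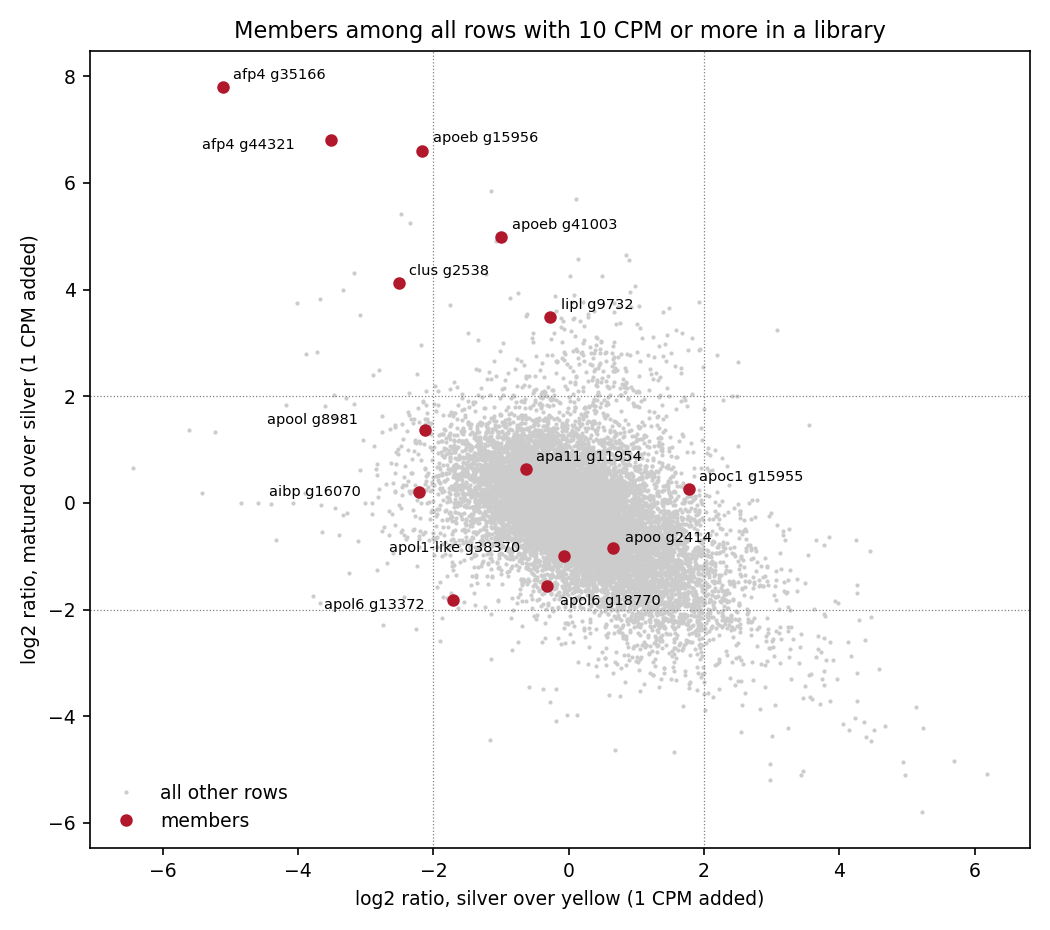
Log2 ratio of silver over yellow (horizontal) against matured over silver (vertical), after adding 1 CPM, for the 14 members (red) and every other gene with at least 10 CPM in a library (grey). Dotted lines mark 4-fold, and both axes contain the silver library, so a low silver value moves a point up and to the left. The members afp4, apoeb and clus lie at the upper left edge, with afp4 (g35166) at -5.11 and 7.80, while apol6 (g13372) lies at -1.71 and -1.82.

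Apart from their names the members were a mixed set. Transcript models ran from 129 to 19660 bases, with 7 of the 29 under 300 bases and a median of 1590, against 726.5 over all genes. Similarity to the best match ran from 0.47 to 0.875. All reads aligned uniquely in 19 of the 25 members that had reads. Of the 29 members 21 (72.4%) had a gene ontology function whose text contains lipid, lipo or cholesterol, against 2.57% of all genes. The members were chosen by lipid carrier and lipase names, so a high share follows from that choice and nothing is read from it.

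None of 20 countable lipoprotein receptor genes was counted as higher or lower in matured versus silver, none of 17 in silver versus yellow and none of 18 in matured versus yellow, with median log2 ratios of 0.65, -0.53 and 0.06. Over all genes 2.23% were higher and 4.61% lower in matured versus silver, and 3.69% and 1.43% in silver versus yellow. In matured versus yellow the shares over all genes were 3.39% higher and 2.59% lower. The lists were chosen with earlier results of these data known. Nothing about a list is therefore read from counts of 0 to 3 genes, here and in the pathway lists that follow. Of the yolk receptor genes named vldlr, g14276 had 1617, 684 and 743 CPM in the yellow, silver and matured ovary. In the same order g14275 had 747, 311 and 439 CPM, and g40667, lowest in the matured ovary, had 299, 107 and 90.6 CPM. The multiligand receptor lrp2, megalin (g15367), had 187, 112 and 215 CPM in the yellow, silver and matured ovary. The apolipoprotein E receptor gene lrp1 (g21419) had 9.77, 7.08 and 27.5 CPM and was 3.89-fold higher in matured versus silver (3.39 to 4.47). The sorting receptor sorl (g6140) was 3.94-fold higher there (3.15 to 4.97). After adding 1 CPM, the scale on which the log2 limit is 2, these log2 ratios were 1.82 and 1.65, so neither was counted. In matured versus yellow stab1 (g2269) was 4.63-fold higher (3.72 to 5.82) and lrp12 (g6502) 4.33-fold higher (3.57 to 5.28). With 1 CPM added their log2 ratios were 1.94 and 1.90, also uncounted. Lower there and uncounted were vldlr (g40667, -1.71) and arh (g4506, -1.46). The high-density lipoprotein receptor scrb1 (g12058) had 30.9, 9.65 and 22.7 CPM.

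Among 17 countable genes of lipoprotein assembly, transfer and cholesterol efflux, 1 was higher and 2 were lower in matured versus silver. Over all genes 2.23% were higher and 4.61% lower. These shares were 3.39% and 2.59% in matured versus yellow, and 3.69% and 1.43% in silver versus yellow. Different genes of the cholesterol exporter abca1 went opposite ways. The gene g4770 had 7.14, 5.52 and 43.6 CPM in the yellow, silver and matured ovary and was 7.90-fold higher in matured versus silver (6.83 to 9.18). The gene g1133 had 44.6, 46.2 and 9.07 CPM and was 5.10-fold lower (4.52 to 5.77). The other gene counted as lower was sar1b (g7186), a small GTPase of secretory transport, at 5.99-fold (4.56 to 7.97). In matured versus yellow 1 of 14 was higher and 2 lower, the second of these being the sterol exporter abcg1 (g10227) at 4.56-fold (4.05 to 5.15), and in silver versus yellow 0 of 15 were counted. The list's median log2 ratio was -0.62 in matured versus silver, -0.17 in matured versus yellow and 0.79 in silver versus yellow. The cholesterol transfer protein npc2 (g2653) had 242, 552 and 179 CPM in the yellow, silver and matured ovary and was not counted.

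In the list of fatty acid uptake and activation 1 of 12 genes was lower and 0 higher in matured versus silver. Over all genes 4.61% were lower and 2.23% higher in matured versus silver, and 2.59% lower and 3.39% higher in matured versus yellow. In silver versus yellow these shares were 1.43% lower and 3.69% higher. The gene of the list counted in matured versus silver is given next. It was the acyl-CoA synthetase acsl5 (g7748), which had 4.91 CPM in the matured and 30.2 CPM in the silver ovary and was 6.15-fold lower (5.23 to 7.27). Matured versus yellow had 3 of 13 lower, led by acbg2 (g24487) at 5.84-fold (5.24 to 6.54), and in silver versus yellow 0 of 13 were counted, with medians of -0.52 (matured versus silver), -0.89 (matured versus yellow) and -0.06 (silver versus yellow). Among lipid-sensing transcription factors 2 of 12 were higher and 0 lower in matured versus silver. They were pparg (g9), a fatty acid-activated receptor that drives lipase genes in mammals, at 7.50-fold (5.83 to 9.79), and nr5a2 (g8768), a receptor of steroid and lipid metabolism, at 5.72-fold (4.70 to 7.02). Another nr5a2 gene, g19817, was 5.73-fold lower in silver versus yellow (5.26 to 6.25). In that comparison cebpb (g6933), a factor induced in fat cell formation and inflammation, was 6.23-fold higher (5.48 to 7.12), so 1 of 8 was higher and 1 lower. Matured versus yellow had 2 of 11 higher and 1 lower. The medians were 0.27 (matured versus silver), 1.69 (matured versus yellow) and 1.34 (silver versus yellow). The oxysterol receptor nr1h3, which switches on apolipoprotein E in mammals, had 9.28, 27.8 and 32.1 CPM in the yellow, silver and matured ovary.

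**Figure D4:**
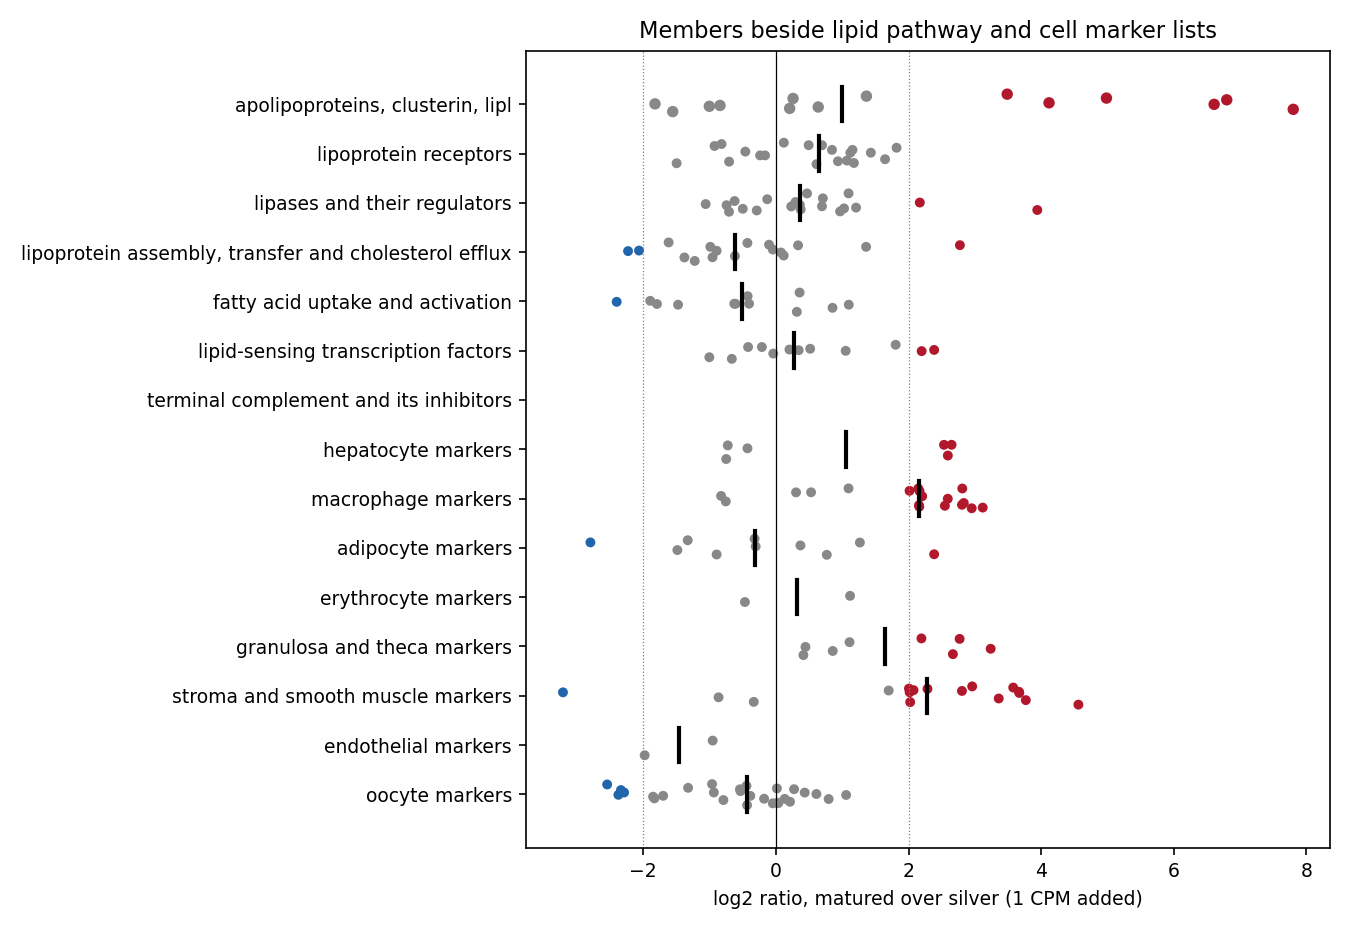
Log2 ratio of matured over silver, after adding 1 CPM, for every countable gene of the members, of 6 lipid and complement lists and of 8 cell marker lists, with the median as a black bar. Red and blue mark genes counted as at least 4-fold higher and lower. No terminal complement gene was countable, and the 6 red members reach from 3.49 to 7.80. The lipase regulator angl4 (g1879) lies at 3.94.

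Markers of several somatic cell types also differed in matured versus silver, as did apoeb, clus and lipl. Of 18 countable macrophage marker genes 13 were higher and 0 lower in matured versus silver, among them spi1 (g13044), a transcription factor of myeloid cells, at 11.6-fold (8.63 to 15.8). Over all genes 2.23% were higher and 4.61% lower. Only 3 of these markers reached 10 CPM in the silver library, against 18 in the matured library. Most were thus countable only through the library where they were high, and few could have been lower. Nothing is read from the balance of higher and lower. The macrophage list summed to 2026, 2450.1 and 1797 CPM in the yellow, silver and matured ovary, a sum held mostly by the lysosomal protease catb at 1319.6, 2246 and 1330.3 CPM. The macrophage growth factor receptor csf1r (g20676) had 0.0376, 0.345 and 2.17 CPM, and its other gene g36439 had no reads.

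Of 8 countable granulosa and theca markers 4 were higher and 0 lower in matured versus silver, and that list summed to 134, 168 and 657 CPM in the yellow, silver and matured ovary. Of 17 stroma and smooth muscle markers 13 were higher and 1 lower, with sums of 1129, 912 and 1737 CPM. In the silver library 6 granulosa and theca and 9 stroma and smooth muscle markers reached 10 CPM, against 8 and 16 in the matured library. Some were thus countable only through the matured library, and nothing is read from the balance of higher and lower. Shares over all genes were 2.23% higher and 4.61% lower in matured versus silver. Of 6 hepatocyte markers 3 were higher and 0 lower, the complement gene co3 in g14949 and g14950 and the protease inhibitor a2mg (g3378). The whole hepatocyte list summed to 345, 275 and 631 CPM, and 7 of its 31 genes reached 10 CPM in a library. Of that sum a2mg (g3378) held 30.6, 55.3 and 325 CPM in the yellow, silver and matured ovary. The co3 genes held 16.4, 14.5 and 96.2 CPM (g14949) and 16.7, 10.2 and 66.3 CPM (g14950). The higher matured sum came from these genes, and the rest of the list did not rise. Prothrombin, thrb, had 0 reads in all libraries and transferrin, trfe, had 0.601, 1.03 and 0.202 CPM. The plasma copper carrier ceru (g17060) had 31.7, 8.78 and 2.05 CPM and was 15.5-fold lower in matured versus yellow (12.1 to 19.99). Adipocyte markers had 1 of 10 higher (pparg) and 1 lower (the fatty acid binding protein fabp4, g3192), and the fat cell hormone adipo had 0.451, 0.769 and 0.173 CPM. Endothelial markers had 0 of 2 and erythrocyte markers 0 of 2 counted in either direction, and 4 of 28 oocyte markers were lower and 0 higher. Both endothelial genes were countable only through the silver library. Of them cadh5 (g17569) was 4.67-fold lower (3.89 to 5.65), with a log2 ratio of -1.98 after adding 1 CPM, and vwf (g357) 2.07-fold lower (1.78 to 2.42). In matured versus yellow 14 of 18 macrophage markers were higher and 1 lower, 6 of 8 granulosa and theca markers and 13 of 16 stroma and smooth muscle markers were higher and 0 lower, and 2 of 6 hepatocyte markers were higher and 1 lower. Adipocyte and erythrocyte markers had 0 of 9 and 0 of 1 counted there, and 1 of 1 endothelial and 1 of 30 oocyte markers were lower. Over all genes 3.39% were higher and 2.59% lower in matured versus yellow. In the yellow library 3 macrophage, 2 granulosa and theca and 7 stroma markers reached 10 CPM, against 18, 8 and 16 in the matured library. Many of these markers were therefore countable only through the matured library. The part of these cell types in the levels of the apolipoprotein genes was not tested.

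In silver versus yellow 1 apoeb, 2 afp4 and 1 clus gene were lower. Only 3 macrophage and 9 stroma and smooth muscle markers could be counted there, against 18 and 17 in matured versus silver. The numbers of markers counted in these comparisons are therefore not set against each other. Over all genes 3.69% were higher and 1.43% lower in silver versus yellow. Counted as higher or lower were 0 and 1 of 3 macrophage markers, 2 and 0 of 6 granulosa and theca markers, 1 and 0 of 9 stroma and smooth muscle markers and 0 and 1 of 30 oocyte markers. None of 7 hepatocyte, 9 adipocyte, 2 endothelial or 1 erythrocyte markers was counted. The macrophage marker counted as lower was the lysosomal membrane gene cd68 (g2063), with 117 CPM (silver) against 649 CPM (yellow).

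Genes with the most similar pattern were found as the nearest named genes in the 2 log2 ratios, silver over yellow and matured over silver, after adding 1 CPM. This is a likeness over 3 libraries only. The added 1 CPM shrinks the ratios of genes with low levels, so the distances and their order depend on it. Nearest to apoeb (g15956) was the immunoglobulin heavy chain gene mucm (g15046), at a distance of 1.26 log2 units, with 8.08, 3.08 and 234 CPM in the yellow, silver and matured ovary. The next were afp4 (g44321) at 1.37 and apoeb (g41003) at 1.999. Without the added 1 CPM the folds of apoeb (g41003) were 0.185 in silver over yellow and 137 in matured over silver. Those of g15956 were 0.218 and 101, so the order of these neighbours is no measure of which gene is most alike. The nearest to clus was the ETS family factor etv4 (g6392) at 0.86, with 12.4, 2.97 and 51.0 CPM, and the nearest to lipl (g9732) was the retinol-binding protein gene ret1 (g7159) at 0.14, with 0.226, 0.0795 and 12.1 CPM. The yellow and silver levels of ret1 lie under the added 1 CPM, and the silver one is at the floor of 3 counts. The small distance therefore rests on that addition. The retinol-binding gene ret2 (g7158), with 11.8, 4.48 and 107 CPM, was the nearest to apoeb (g41003) at 0.72 and among the 5 nearest to clus. The nearest gene to each afp4 gene outside the pair was apoeb (g15956), at 1.37 from g44321 and 3.18 from g35166. The next gene after that for g35166 was fhr2 (g17733), related to complement factor H, at 4.19.

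In the authors' deposited table the fold of apoeb (g15956) was 97.1, that of clus 18.0, that of lipl (g9732) 18.3 and that of afp4 (g35166) 1369.8 for the matured over the silver ovary. The log2 value that the authors' deposited table gives beside that fold of apoeb was 9.39, larger than the log2 of the fold itself, 6.60. Their adjusted log2 values are therefore on another scale than the ratios given here.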

How the data were processed

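Ovary mRNA libraries of 1 yellow, 1 silver and 1 matured eel were made from pooled gonad pieces, per the labels' protocols. Genes came from Augustus and their names from Blast2GO, and CLC bio software did the alignment and counting, per the file headers. DESeq, HTSeq, SAMtools 0.1.18, TopHat2 2.0.5 and CASAVA are further tools in the submitters' processing notes. The labels and file headers do not name the genome build of the authors' alignments. The counts are the authors' corrected reads per gene, which include distributed multiple alignments, and their uniquely aligned reads. The RPKM values were computed by the authors from corrected reads, longest transcript length and library total. The ratio (fold) and log2 values were deposited by the authors from DESeq. Deposited p-values of that tool were not used, since the members were chosen with these contrasts known. The line of column totals was left out, and 1 blank line was not analysed here.

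Counts were scaled with TMM factors of edgeR 4.0.16 (0.957 yellow, 0.910 silver, 1.15 matured) in R 4.3.3. With no replicates no p-value was computed. PCR copies are not independent molecules, so intervals and the floor of 3 counts cover counting error only. Members, lists and rules were chosen with earlier results of these data known. Of 304 list names 214 matched a gene by exact protein name. Named are the genes apoeb, afp4, clus and lipl, every apolipoprotein gene with 10 CPM, up to 4 genes of each pathway list with the largest ratios and genes from the 5 nearest in pattern, and other list genes were picked after their values were seen. The length trend was a lowess fit (statsmodels 0.14.6, span 0.3) over genes of at least 1 CPM on average. Alternatives were DESeq2 1.42.0 size factors, library totals, unique reads, pseudocounts of 0.1 and 5 CPM, a minimum of 1 CPM, a 2-fold limit and removal of the length trend. Steps were tested on simulated data. Intervals used scipy 1.17.1, tables pandas 2.3.3 and numpy 2.4.6, and plots matplotlib 3.10.9, under Python 3.11.15.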

Additional observations from a re-analysis of the deposited data

How the results depend on the processing

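Counting the 14 countable members at 2-fold gave 10 in matured versus silver (7 higher, 3 lower), against 6 at 4-fold. The members were chosen with these ratios known, so nothing is read from that balance. Over all genes the 2-fold limit counted 3951 of 12573 in matured versus silver (1212 higher, 2739 lower). It counted 3359 of 12553 in matured versus yellow (1426 higher, 1933 lower) and 3704 of 12462 in silver versus yellow (2318 higher, 1386 lower). The 4-fold limit counted 860, 751 and 638 in the same order. A pseudocount of 5 CPM counted 426, 281 and 282. The other counts stayed within 1.5 times those at 4-fold. The same 6 members were counted in matured versus silver under the 7 alternatives that kept the 4-fold limit. In silver versus yellow the pseudocount of 5 CPM left out afp4 (g44321) and aibp, with log2 ratios of -1.67 and -1.99. In matured versus yellow it left out apoc1 (1.75) and aibp (-1.82). Library totals alone also left out aibp (-1.75). Removing the length trend left out aibp and added apol6 (g18770, -2.13). Of 392 recomputed log2 ratios of single members, 0 that had been counted changed sign. In 73 the shift exceeded the distance from the middle to the end of the counting interval on the log2 scale. That interval belongs to the fold without added CPM. The uncounted ratios that changed sign were as follows. Library totals gave apoo 0.06 in matured versus yellow, against -0.19, and lipl (g9731) 0.23 in matured versus silver, against -0.02, which was 0.16 without the length trend. Without that trend g38370 was 0.19 in silver versus yellow, against -0.07, and apa11 was -0.11 in matured versus yellow, against 0.00 (-0.02 with DESeq2 size factors). No paired analysis was possible because each stage has 1 eel.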
